A study of Mus musculus with 6 samples.

Results

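Glucose is split to pyruvate by the glycolytic enzymes, pyruvate is carried into mitochondria and enters the tricarboxylic acid (TCA) cycle, and shuttles of metabolites move the electrons of cytosolic NADH to the respiratory chain. In β-cells this route couples the glucose level to ATP and so to insulin release. Mature β-cells keep lactate dehydrogenase and the monocarboxylate transporter of lactate low, and depend on the NADH shuttles and on the cycling of pyruvate between mitochondria and cytosol. The 54 genes described here are 13 glycolytic enzymes, 1 subunit of lactate dehydrogenase, 10 genes of pyruvate entry into mitochondria, 12 genes of the TCA cycle, 8 of the NADH shuttles, and 10 of pyruvate cycling and anaplerosis. They were chosen by symbol, and all 54 were found, with 95 probes, among the 45616 genes and transcripts tested.

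The cells came from islets of postnatal day 1 (P1) pups of *Wnt4eGFPCre;mTmG* mice. These carry the knock-in *Wnt4* tm2(EGFP/cre)Svo, which makes eGFP and Cre from the *Wnt4* locus, and the mTmG reporter, the allele tm4(ACTB−tdTomato,−EGFP)Luo of Gt(ROSA)26Sor, whose membrane GFP (mGFP) is switched on for good by Cre. The mGFP+ cells are called Wnt4hi (GFPpositive 2, 3 and 4) and the mGFP- cells Wnt4low (GFPnegative 1, 3 and 4). The sort therefore marks cells that express or have expressed *Wnt4* of any islet cell type. Each array holds 1 pool of islets from 3 or 4 pups, and RNA amounts were small enough to need amplification. Nothing says that the pools of the 2 groups with the same number are the same pups.

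*Wnt4* itself was 10.83 ± 0.34 (SD, n = 3) in Wnt4hi and 9.76 ± 0.41 in Wnt4low as normalized log2 intensity, and the arrays of the 2 groups did not overlap. The log2 fold change was 1.08 (SE 0.272, limma adjusted p = 0.212). Between 70.5% and 79.5% of the probes were well above background on each array, and no spot was saturated. The insulin gene *Ins1*, which marks β-cells, was at 16.88 in Wnt4hi and 16.45 in Wnt4low. The populations also differed in other cell types: all 10 endothelial markers were lower in Wnt4hi, 8 of them with an adjusted p under 0.05, with a median log2 fold change of -3.82. The summed endothelial intensity was 3766 to 5455 in Wnt4hi and 36264 to 68438 in Wnt4low, and *Tie1* and *Tek* were not well above background on any Wnt4hi array. At the unadjusted threshold of 0.05, 6 of 8 mesenchymal and pericyte markers (median -1.38), 4 of 8 leukocyte markers (median -0.58) and 6 of 8 proliferation genes (median -0.91) were lower too, and 2 of 5 α cell markers (median 2.04) and 7 of 10 β cell markers (median 1.26) were higher. Also lower at that threshold were both δ cell markers, *Sst* (-0.56, SE 0.186) and *Hhex* (-1.75, SE 0.301), and 2 of 4 erythroid markers. None of the genes of these 7 lists had an adjusted p under 0.05. In sorted pools, fewer cells of a type and less RNA per cell cannot be told apart. The part of these other cells in the differences below was not tested.

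Few of the 54 genes differed between Wnt4hi and Wnt4low cells beyond the spread of the arrays. No gene had an adjusted p under 0.05, against 0.438% of all 45616 features, and the lowest was 0.0827 for *Gpd1*. At the study's unadjusted threshold of 0.05, 6 genes (11.1%) were higher in Wnt4hi, where 5.02% of all features were, and 1 gene (1.85%) was lower, where 5.53% of all features were. The other 47 genes did not pass. Of the features with a gene symbol, 5.72% were higher and 7.80% lower at that threshold. The 54 fold changes had a median of 0.12 on the log2 scale, close to the median of 0.07 over all features, with 33 above 0 and 21 below. In 6 genes every Wnt4hi array lay above every Wnt4low array, a share of 11.1% beside 9.56% of all features, and in 1 gene every Wnt4hi array lay below, 1.85% beside 6.44%. The lowest value of a gene lay most often on Wnt4low 4 (13 genes), followed by Wnt4hi 2 (12 genes). The highest lay most often on Wnt4hi 4 (15 genes), followed by Wnt4low 4 (14 genes). No single array held most of the lowest or most of the highest values.

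**Figure D1:**
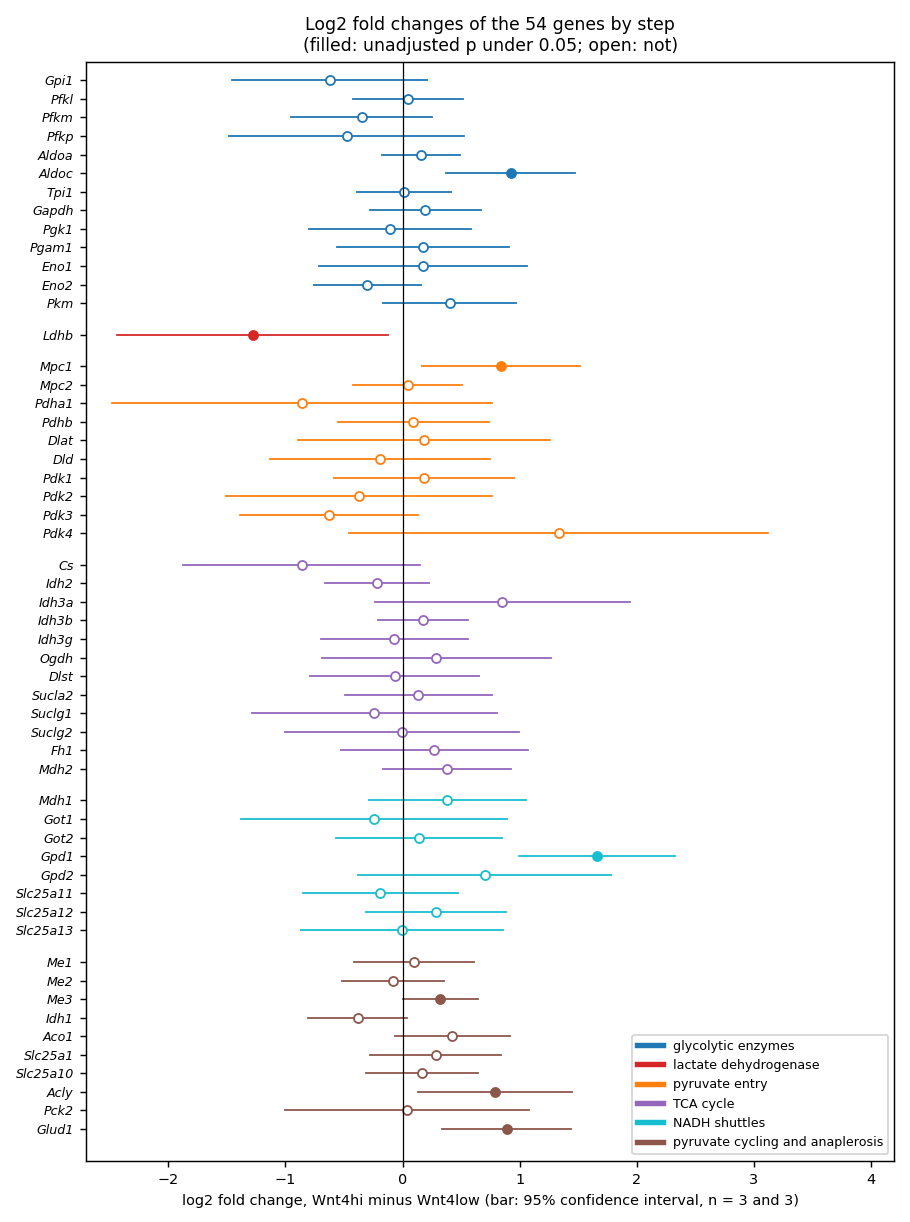
Log2 fold change (Wnt4hi minus Wnt4low, x axis) of each of the 54 genes (y axis, grouped and coloured by step), as points with their 95% confidence interval from limma. The 7 filled points have an unadjusted p under 0.05: *Gpd1*, *Aldoc*, *Glud1*, *Mpc1*, *Acly* and *Me3* above 0 and *Ldhb* below 0.

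By step, the medians were 0.05 for the glycolytic enzymes, 0.07 for pyruvate entry, 0.07 for the TCA cycle, 0.21 for the NADH shuttles and 0.22 for pyruvate cycling and anaplerosis. With 1 array left out, the median ran from -0.03 to 0.10 for the glycolytic enzymes, from -0.09 to 0.16 for pyruvate entry and from -0.06 to 0.18 for the TCA cycle, each below 0 without Wnt4hi 4 and that of pyruvate entry also without Wnt4low 1 or Wnt4low 3. That of the NADH shuttles was 0.44 without Wnt4low 4, 0.35 without Wnt4low 3 and 0.34 without Wnt4hi 2. Of the 6 genes that were higher, 3 belonged to pyruvate cycling and anaplerosis, and 1 each to glycolysis, pyruvate entry and the NADH shuttles. None of the 12 TCA cycle genes passed in either direction.

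Of the 13 enzymes from glucose 6-phosphate to pyruvate, *Aldoc* was the one that passed. It encodes aldolase C, an isozyme of the enzyme that splits fructose 1,6-bisphosphate. It read 10.17, 10.24 and 10.92 on the Wnt4hi arrays 2, 3 and 4, and 9.56, 9.54 and 9.46 on the Wnt4low arrays 1, 3 and 4, as log2 intensity. The groups did not overlap, and the Wnt4low arrays lay within a narrow range. *Aldoc* was 1.90-fold higher in Wnt4hi, a log2 fold change of 0.92 (SE 0.226, limma adjusted p = 0.201). A dimmer probe of *Aldoc* gave 0.38 (SE 0.236, adjusted p = 0.667), with overlapping groups. Without Wnt4hi 4 or Wnt4hi 2 that other probe became the brighter one and stood for the gene, with log2 fold changes of 0.21, which did not pass the unadjusted threshold, and 0.60, which did.

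The 12 other glycolytic enzymes had log2 fold changes between -0.62 and 0.40. *Pkm*, pyruvate kinase M, was at 0.40 (95% interval -0.16 to 0.97), *Gapdh*, glyceraldehyde 3-phosphate dehydrogenase, at 0.19, *Aldoa* at 0.16, *Tpi1*, triose phosphate isomerase, at 0.01, and *Gpi1*, glucose 6-phosphate isomerase, at -0.62 (95% interval -1.46 to 0.21). The 3 phosphofructokinase genes were at 0.05 (*Pfkl*), -0.35 (*Pfkm*) and -0.48 (*Pfkp*). For *Gpi1* the call turned on Wnt4hi 3: without it its log2 fold change was -1.01 and passed the unadjusted threshold.

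*Ldhb* was the single gene of the 54 that was lower in Wnt4hi at the unadjusted threshold. It encodes the heart-type subunit of lactate dehydrogenase, which interconverts pyruvate and lactate. Its probe read 10.59, 8.80 and 10.18 on the Wnt4hi arrays 2, 3 and 4 and 11.39, 10.76 and 11.25 on the Wnt4low arrays 1, 3 and 4, on the log2 scale. Every Wnt4hi array lay below every Wnt4low array, with Wnt4hi 3 far below the other two. *Ldhb* was 2.43-fold lower in Wnt4hi, a log2 fold change of -1.28 (SE 0.476, adjusted p = 0.416). Without Wnt4hi 3 this was -0.76 and still passed, and without Wnt4low 1 or Wnt4low 4 it did not pass (-1.15 and -1.22). A dimmer probe, designed on another transcript of *Ldhb*, gave -0.28 (SE 0.228, adjusted p = 0.757).

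Pyruvate enters mitochondria through a carrier made of MPC1 and MPC2, and only *Mpc1* passed. As log2 intensity it read 10.28, 9.35 and 10.002 on the Wnt4hi arrays 2, 3 and 4, and 9.33, 8.85 and 8.94 on the Wnt4low arrays 1, 3 and 4. The lowest Wnt4hi array and the highest Wnt4low array were all but level. The gene was 1.79-fold higher in Wnt4hi, a log2 fold change of 0.84 (SE 0.276, adjusted p = 0.345). It did not pass without Wnt4low 3, Wnt4low 4, Wnt4hi 2 or Wnt4hi 4 (0.63 to 0.79), nor in the authors' table (0.27). A dimmer probe gave 0.50 (SE 0.299, adjusted p = 0.654). *Mpc2* was at 0.04 (95% interval -0.42 to 0.51).

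Of the pyruvate dehydrogenase complex, which makes acetyl-CoA from pyruvate, *Pdha1* was at -0.86 (SE 0.666), *Pdhb* at 0.09, *Dlat* at 0.19 and *Dld* at -0.19 on the log2 scale. None of the kinases that switch the complex off passed with all 6 arrays. *Pdk4* was at 1.33 (SE 0.735, adjusted p = 0.631), *Pdk1* at 0.18, *Pdk2* at -0.37 and *Pdk3* at -0.63 (SE 0.313, adjusted p = 0.576). *Pdk3* passed without Wnt4low 3 (-0.84) and without Wnt4hi 3 (-0.86). *Pdk4* had the widest spread, with 12.02, 13.36 and 13.53 on the Wnt4hi arrays 2, 3 and 4 and 10.29, 11.68 and 12.93 on the Wnt4low arrays 1, 3 and 4. *Pdk3* was well above background on 1 of 3 Wnt4hi arrays and *Dld* on 2 of 3, so that their values in Wnt4hi lie near the limit of detection.

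In the TCA cycle the gene with the smallest p was *Cs*, citrate synthase, which joins acetyl-CoA to oxaloacetate. Its values were 10.67, 10.05 and 10.52 on the Wnt4hi arrays 2, 3 and 4, and 12.18, 10.67 and 10.97 on the Wnt4low arrays 1, 3 and 4, as log2 intensity. The groups met at 10.67 and Wnt4low 1 lay far above the other arrays. A log2 fold change of -0.86 (SE 0.416, adjusted p = 0.562) resulted, and a dimmer probe gave -0.55 (SE 0.202, adjusted p = 0.385) without overlap between the groups. That dimmer probe passed the unadjusted threshold, as did the brighter one without Wnt4low 3, at -1.16. Without Wnt4low 1 or Wnt4hi 2 the other probe stands for the gene, and its difference was -0.51 and -0.43. The other 11 genes had log2 fold changes between -0.24 and 0.85. *Idh3a*, the catalytic subunit of the NAD-dependent isocitrate dehydrogenase, was at 0.85 (SE 0.448, adjusted p = 0.606), beside 0.17 for *Idh3b* and -0.07 for *Idh3g*. *Mdh2*, mitochondrial malate dehydrogenase, was at 0.38 (95% interval -0.17 to 0.93) and *Ogdh*, of the 2-oxoglutarate dehydrogenase complex, at 0.29 (95% interval -0.69 to 1.27).

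The gene with the smallest p of the 54 was *Gpd1*, in the glycerol phosphate shuttle. The cytosolic enzyme GPD1 passes electrons from NADH to dihydroxyacetone phosphate, and the mitochondrial GPD2 passes them on to the respiratory chain. The *Gpd1* arrays read 11.55, 11.41 and 11.78 on the Wnt4hi arrays 2, 3 and 4 and 10.35, 10.03 and 9.37 on the Wnt4low arrays 1, 3 and 4. All Wnt4hi arrays lay more than 1 unit above the highest Wnt4low array. *Gpd1* was 3.16-fold higher in Wnt4hi, a log2 fold change of 1.66 (SE 0.274, adjusted p = 0.0827) with a 95% interval of 1.00 to 2.33. A dimmer *Gpd1* probe gave 0.95 (SE 0.251, adjusted p = 0.221), also without overlap. The adjusted p was 0.0416 when only the 31996 features well above background in a group were tested, and above 0.05 under the other settings.

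*Gpd2* was at 0.70 (SE 0.444, adjusted p = 0.691), with 8.50, 9.57 and 9.36 on the Wnt4hi arrays 2, 3 and 4 and 7.70, 9.16 and 8.47 on the Wnt4low arrays 1, 3 and 4. A dimmer *Gpd2* probe gave 1.11 (SE 0.449, adjusted p = 0.446) and passed the unadjusted threshold. The malate-aspartate shuttle, the other route for cytosolic NADH, had no gene that passed: *Mdh1* was at 0.38, *Got1* at -0.25, *Got2* at 0.14, the oxoglutarate carrier *Slc25a11* at -0.19, and the aspartate-glutamate carriers *Slc25a12* and *Slc25a13* at 0.29 and -0.01 on the log2 scale.

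Pyruvate cycling and anaplerosis held 3 of the 6 genes that were higher in Wnt4hi, namely *Glud1*, *Acly* and *Me3*. *Glud1* encodes glutamate dehydrogenase, which feeds 2-oxoglutarate into the cycle and mediates the insulin response to leucine. On the log2 scale it read 13.88, 13.61 and 14.17 on the Wnt4hi arrays 2, 3 and 4 and 12.64, 13.15 and 13.21 on the Wnt4low arrays 1, 3 and 4. The groups did not overlap, and *Glud1* was 1.85-fold higher in Wnt4hi, a log2 fold change of 0.89 (SE 0.226, adjusted p = 0.216). A dimmer *Glud1* probe gave 0.69 (SE 0.146, adjusted p = 0.139), again without overlap, and *Glud1* passed the unadjusted threshold under each of the 20 other settings tried.

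*Acly* encodes ATP citrate lyase, which turns exported citrate back into acetyl-CoA in the cytosol. Log2 intensities were 12.81, 13.45 and 12.94 on the Wnt4hi arrays 2, 3 and 4 and 12.15, 12.73 and 11.96 on the Wnt4low arrays 1, 3 and 4. The groups were separated by a small gap between Wnt4hi 2 and Wnt4low 3. *Acly* was 1.73-fold higher in Wnt4hi, a log2 fold change of 0.79 (SE 0.271, adjusted p = 0.367). The other *Acly* probe gave 0.83 (SE 0.175, adjusted p = 0.139). The brighter probe did not pass without Wnt4low 1, Wnt4low 4 or Wnt4hi 3 (0.60 to 0.71).

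*Me3*, the mitochondrial NADP-dependent malic enzyme, had the smallest fold change of those that passed. It read 8.87, 8.84 and 8.90 on the Wnt4hi arrays 2, 3 and 4, and 8.46, 8.47 and 8.70 on the Wnt4low arrays 1, 3 and 4, as log2 intensity. The values of Wnt4hi were close together and all above those of Wnt4low. *Me3* was 1.25-fold higher in Wnt4hi, a log2 fold change of 0.32 (SE 0.131, adjusted p = 0.469), and passed under 6 of the 20 other settings only. It did not pass without Wnt4low 1, Wnt4low 3, Wnt4hi 2, Wnt4hi 3 or Wnt4hi 4 (0.28 to 0.34).

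The other 7 genes of this step did not pass. *Aco1*, cytosolic aconitase, was at 0.42 (SE 0.201, adjusted p = 0.552), with a dimmer probe at -0.44, and *Idh1*, cytosolic isocitrate dehydrogenase, at -0.38 (SE 0.175, adjusted p = 0.531). *Idh1* passed with cyclic loess normalization (-0.46) and without Wnt4hi 2 (-0.51). The citrate carrier *Slc25a1* was at 0.28, the dicarboxylate carrier *Slc25a10* at 0.17, *Me1* at 0.10, *Me2* at -0.08 and *Pck2*, mitochondrial phosphoenolpyruvate carboxykinase, at 0.03. *Slc25a10* was well above background on 1 of 3 arrays in each group.

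**Figure D2:**
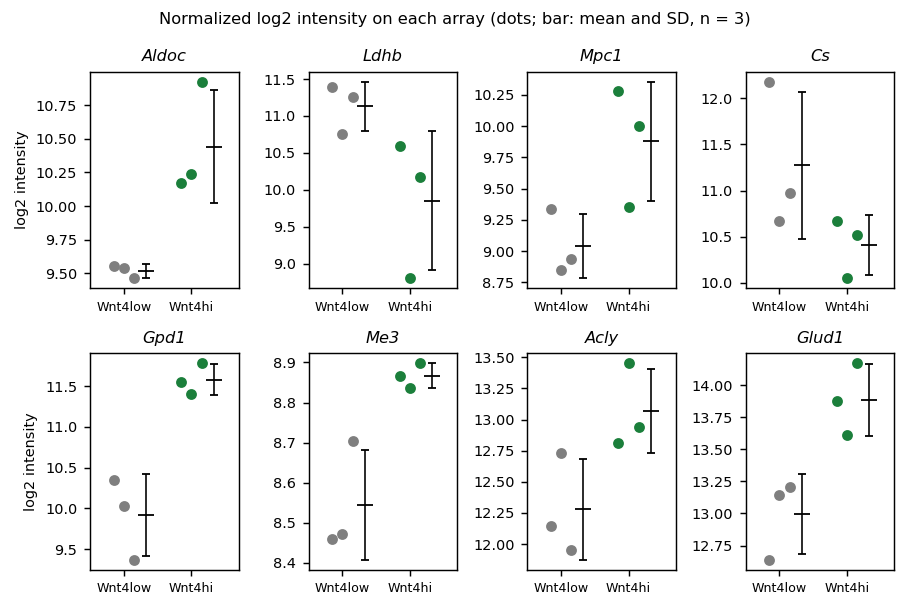
Normalized log2 intensity (y axis, a separate range in each panel) on each Wnt4low array (grey dots, replicates 1, 3, 4 from left to right) and Wnt4hi array (green dots, replicates 2, 3, 4), with the mean and SD of the 3 arrays beside them. *Cs*, which did not pass, is the gene of the TCA cycle with the smallest p; its groups meet at 10.67, and the groups of the other 7 genes do not overlap.

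Isozymes and subunits of a step were then compared within each array, to ask whether members of a pair changed unequally between the populations. For each of 25 pairs the log2 difference between both genes was taken on each array, each gene centred on its mean over the 6 arrays, and compared between the groups by an exact permutation test, two-sided, whose smallest possible p with 3 arrays against 3 is 0.1. In 5 pairs (20%) the groups did not overlap, and the pairs share genes. Of all single features 15.997% did not overlap in either direction, and of those with a gene symbol 18.3%. Each of the 5 pairs came with an exact permutation p = 0.1, and 0.5 after adjustment over the pairs. No pair can thus be called.

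For *Aldoa* and *Aldoc* the difference in log2 fold change was -0.77 (SE 0.220), with within-array values of -0.08, -0.29 and -0.78 on the Wnt4hi arrays 2, 3 and 4 and 0.28, 0.52 and 0.35 on the Wnt4low arrays 1, 3 and 4. *Aldoc* thus lay relatively higher on all Wnt4hi arrays. Without Wnt4hi 4 or Wnt4hi 2, where the other *Aldoc* probe stands for the gene, the difference was -0.09 and -0.46. For *Mpc1* and *Mpc2* it was 0.80 (SE 0.240), with 0.70, 0.17 and 0.33 on the Wnt4hi arrays and -0.08, -0.41 and -0.71 on the Wnt4low arrays, in the same order. In the authors' normalized table this difference was 0.02.

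The kinase *Pdk4* lay relatively higher in Wnt4hi than *Pdk2* (-1.71, SE 0.638) and *Pdk3* (-1.96, SE 0.760), but not without overlap against *Pdk1* (-1.15, SE 1.24). Without Wnt4low 1 the difference between *Pdk3* and *Pdk4* was -1.26. For *Me2* and *Me3* the difference was -0.40 (SE 0.154), and -0.26 without Wnt4hi 4. The other 20 pairs overlapped. Among them were the lactate dehydrogenase subunits *Ldhb* and *Ldha* (0.28, SE 0.323), the shuttle enzymes *Gpd1* and *Gpd2* (0.96, SE 0.682) and the cytosolic and mitochondrial malate dehydrogenases *Mdh1* and *Mdh2* (0.00, SE 0.339).

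**Figure D3:**
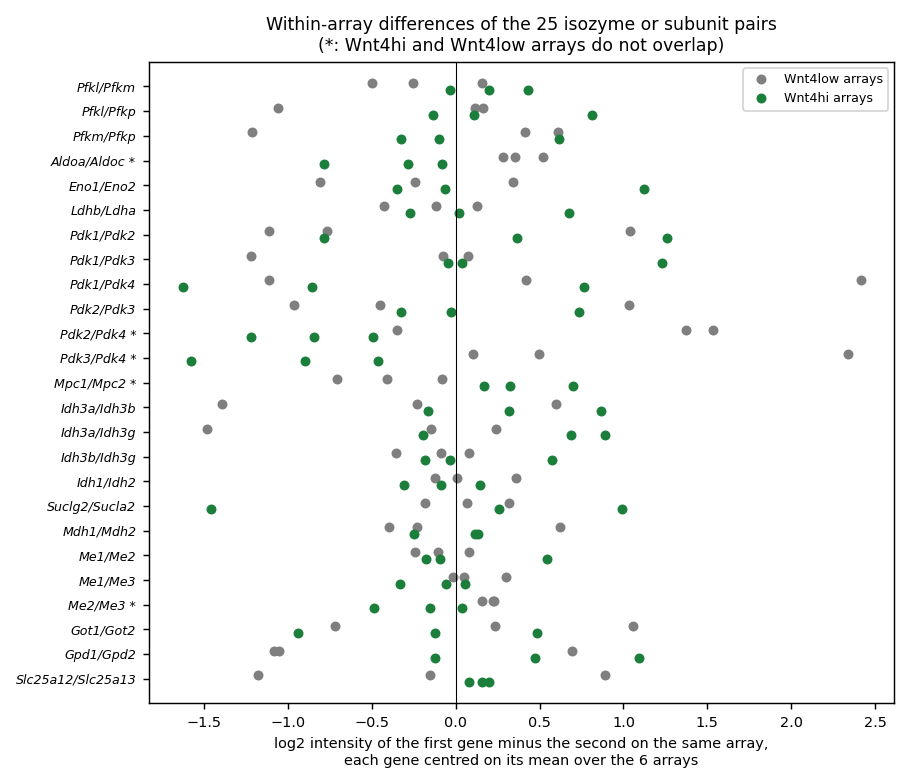
Within-array difference in log2 intensity between the first and second gene of each pair (x axis, each gene centred on its mean over the 6 arrays), for the 3 Wnt4low (grey) and 3 Wnt4hi (green) arrays of 25 pairs (y axis). The 5 starred pairs, in which the groups do not overlap, each have an exact permutation p of 0.1, the smallest possible.

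The array holds more than 1 probe for 31 of the 54 genes. All probes of a gene had the same sign of fold change for 21 of these genes and differed in sign for 10. Of the 95 probes, 10 were higher and 5 lower in Wnt4hi at an unadjusted p under 0.05, where 11% of all 56605 probes passed in either direction. No probe of these genes had an adjusted p under 0.05, where 0.475% of all probes did.

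Some probes that differed widely from the brightest probe of their gene are named here after their values were seen, beside the pair of *Ldhb* probes given above. A probe designed on another transcript of *Pfkp*, the platelet-type phosphofructokinase, read 8.28, 8.66 and 8.22 on the Wnt4hi arrays 2, 3 and 4 and 10.66, 9.86 and 10.02 on the Wnt4low arrays 1, 3 and 4. These groups lay more than 1 unit apart. Its log2 fold change was -1.80 (SE 0.257, p adjusted over all probes = 0.0598), beside -0.48 for the brighter *Pfkp* probe. A second *Pkm* probe gave 1.33 (SE 0.379, adjusted p = 0.259) beside 0.40. A second probe of *Eno1*, enolase 1, gave -0.72 (SE 0.194, adjusted p = 0.233) beside 0.17, and a second *Got1* probe gave 1.13 (SE 0.509, adjusted p = 0.505) beside -0.25. The dim second probe of *Pck2* was not well above background on any Wnt4hi array, and no fold is given for it. The *Gapdh* probes ran from -0.45 to 0.19, and a second *Me1* probe gave -0.62 beside 0.10. A second *Idh3g* probe gave 0.10 beside -0.07. For *Pfkp*, *Ldhb*, *Pkm*, *Eno1*, *Got1*, *Aco1*, *Gapdh*, *Me1*, *Mdh1*, *Slc25a11*, *Slc25a12* and *Idh3g*, among others, the size or the sign of the difference therefore rests on the probe. The size for *Gpd1* also differed between its probes (1.66 and 0.95), with the same sign.

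**Figure D4:**
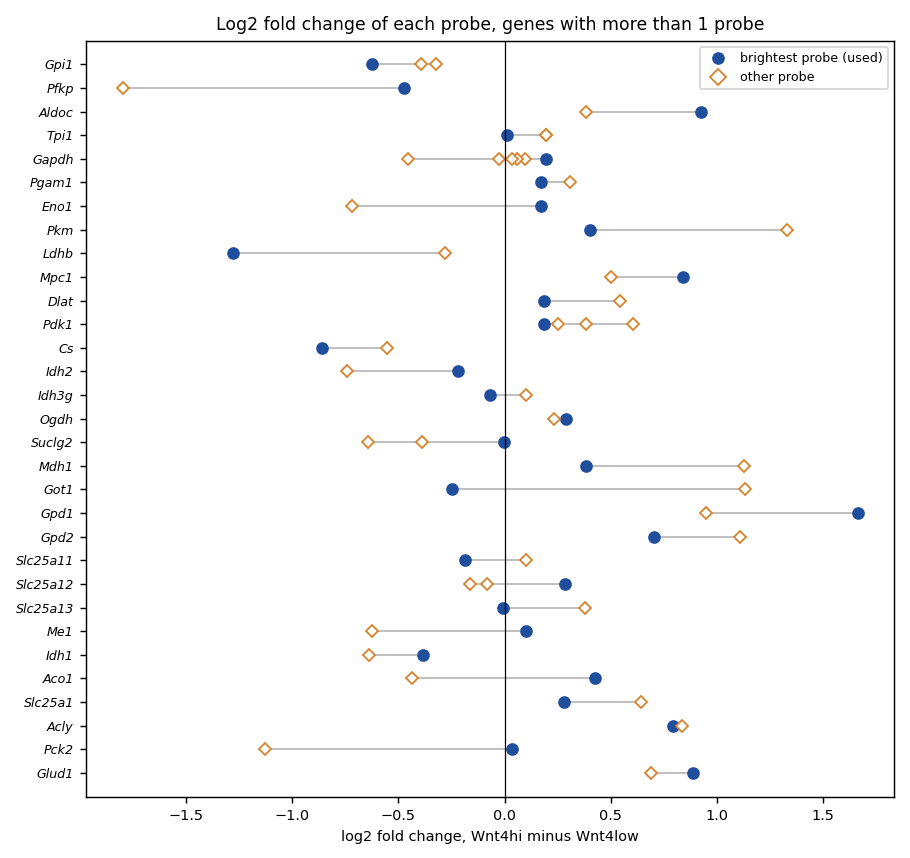
Log2 fold change (Wnt4hi minus Wnt4low, x axis) of every probe of the 31 genes with more than 1 probe (y axis), with the brightest probe, which stands for the gene, as a blue circle and the others as open diamonds. *Pfkp* and *Got1* have probes more than 1 unit apart, as has *Pck2*, whose lower probe was not well above background in Wnt4hi, and both *Gpd1*, both *Glud1* and both *Acly* probes lie above 0.5.

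Of 52 other genes of glucose entry, glycolysis, lactate handling, the TCA cycle and the pentose phosphate pathway that were measured, 5 were higher and 8 lower in Wnt4hi at an unadjusted p under 0.05, and none had an adjusted p under 0.05 in the reported setting. These are 9.62% and 15.4% of them, beside 5.72% and 7.80% of the features with a gene symbol. Their median log2 fold change was 0.06. For the genes named as higher or lower here, the arrays of both groups did not overlap unless said otherwise.

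At glucose entry the transporter genes differed in opposite directions between the populations. *Slc2a2*, which encodes the β cell transporter GLUT2, was higher by 1.67 on the log2 scale (SE 0.498, adjusted p = 0.292). The transporter genes *Slc2a1* (-1.26, SE 0.260, adjusted p = 0.139) and *Slc2a3* (-1.74, SE 0.285, adjusted p = 0.0813) and the hexokinase genes *Hk1* (-1.97, SE 0.50, adjusted p = 0.215) and *Hk2* (-1.32, SE 0.232, adjusted p = 0.0948) were lower. *Slc2a3* and *Hk2* were not well above background on any Wnt4hi array, so that only a bound holds for them: at least 3.18-fold lower for *Slc2a3* and at least 1.42-fold lower for *Hk2*, the latter bright on 2 of 3 Wnt4low arrays. On the 3 Wnt4low arrays *Hk1* read 11.51, 11.16 and 10.94, and on the Wnt4hi arrays 10.37, 8.45 and 8.89. When its probes were averaged, *Hk1* was at -0.96 on the log2 scale, and in the authors' table at -0.52.

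Along glycolysis *Eno3*, the muscle enolase (1.35, SE 0.485, adjusted p = 0.396), *Pklr*, the liver-type pyruvate kinase (1.02, SE 0.398, adjusted p = 0.444, groups overlapping), and *Fbp1*, fructose bisphosphatase of gluconeogenesis (1.52, SE 0.312, adjusted p = 0.134), were higher. *Eno3* did not pass without Wnt4low 1, Wnt4low 4 or Wnt4hi 2, with 0.87 in the last case, and *Pklr* did not pass when any array but Wnt4hi 2 was left out, with 0.68 without Wnt4hi 3. At the lactate branch *Ldha*, the muscle-type subunit (-1.56, SE 0.378, adjusted p = 0.196), and *Slc16a1*, which encodes the lactate and pyruvate transporter MCT1 (-1.37, SE 0.342, adjusted p = 0.207), were lower, as was *Ldhb*. *Ldha* read 12.13, 10.63 and 11.07 on the Wnt4hi arrays 2, 3 and 4 and 12.82, 12.75 and 12.94 on the Wnt4low arrays 1, 3 and 4, and Wnt4hi 3 was the lowest array for both subunits. In the TCA cycle the succinate dehydrogenase subunits *Sdhc* (-0.63, SE 0.139, adjusted p = 0.162) and *Sdha* (-0.48, SE 0.194, adjusted p = 0.468) were lower. *Sdha* passed under 5 of 19 other settings only, and the other subunits *Sdhb* (0.10) and *Sdhd* (0.42) did not pass. The endothelial and δ cell markers, and those mesenchymal, leukocyte and erythroid markers that passed, moved in the same direction as the genes that were lower here. The β cell list shares genes with the list of other pathway genes, *Slc2a2* among them.

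**Figure D5:**
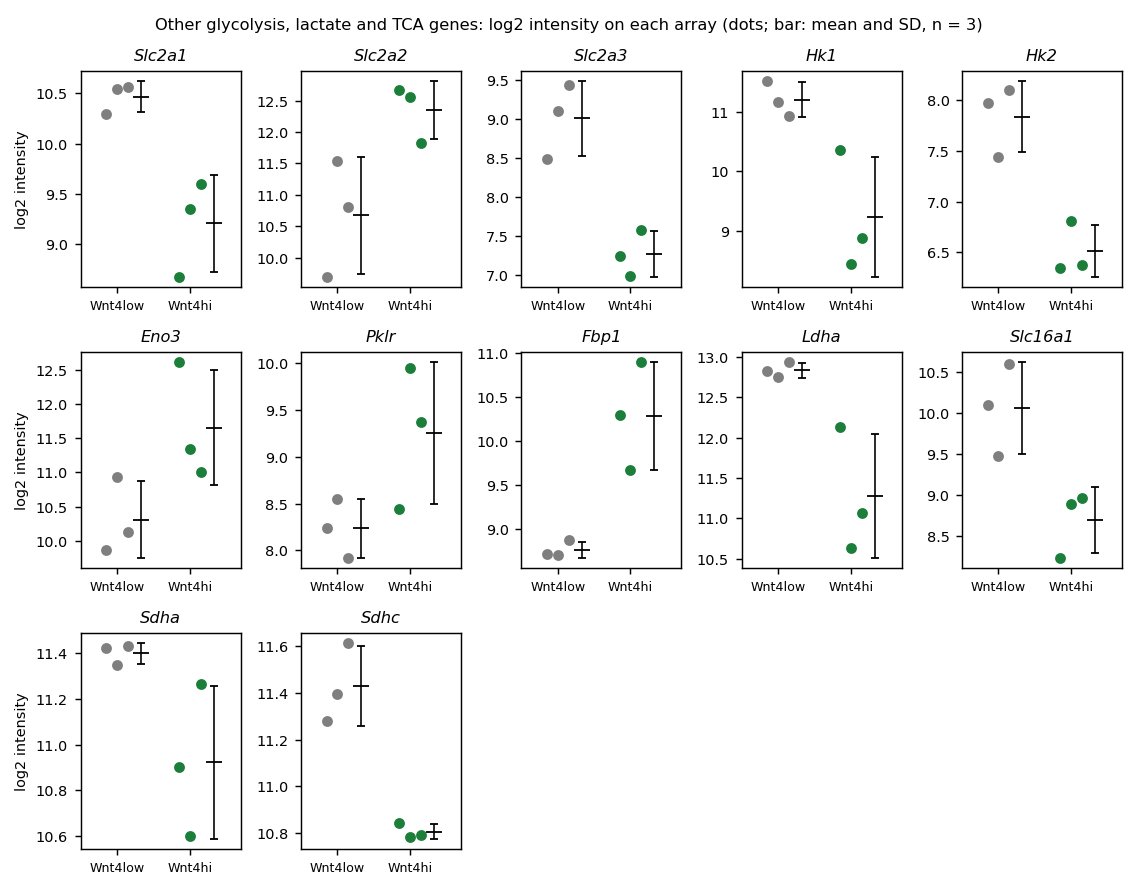
Normalized log2 intensity (y axis, a separate range in each panel) on the Wnt4low (grey dots, replicates 1, 3, 4) and Wnt4hi arrays (green dots, replicates 2, 3, 4), with the mean and SD, of 12 other pathway genes with an unadjusted p under 0.05. *Slc2a1*, *Slc2a3*, *Hk1*, *Hk2*, *Ldha*, *Slc16a1*, *Sdha* and *Sdhc* are lower in Wnt4hi, and *Pklr* is the gene whose groups overlap.

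The windows around the starts of these genes were read for short sequences known from metabolic promoters. RefSeq windows of 300 bases (build GRCm38.p6, mostly upstream of the start) were at hand for 51 of the 54 genes. ACGTG, a core letter string of hypoxia response elements, was present on either strand in a window of 18 of 51 genes (35.3%), and of 21.8% of all 27025 genes. CACGTG, the E-box, which contains ACGTG, was present in 5 (9.8%, all genes 8.1%), AAGGTCA, from the extended half-site of estrogen-related receptors, in 4 (7.8%, all genes 5.4%), and GCATGCGC, from the nuclear respiratory factor 1 site, in 3 (5.9%, all genes 3.0%). These shares are a description, with no test, and genes with several starts have several windows.

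Of the 7 genes that passed, *Aldoc* and *Acly* hold ACGTG and *Glud1* holds GCATGCGC, while *Ldhb*, *Mpc1* and *Me3* hold none of these letters in their windows. *Gpd1* was not among the 51 genes with a window. The 3 windows with a match are shown with the match in capitals, read 5′ to 3′ on the strand of the gene. They lie at chr11:78322823-78323122 (plus strand) for *Aldoc*, chr11:100527951-100528250 (minus strand) for *Acly* and chr14:34310477-34310776 (plus strand) for *Glud1*.
Aldoc: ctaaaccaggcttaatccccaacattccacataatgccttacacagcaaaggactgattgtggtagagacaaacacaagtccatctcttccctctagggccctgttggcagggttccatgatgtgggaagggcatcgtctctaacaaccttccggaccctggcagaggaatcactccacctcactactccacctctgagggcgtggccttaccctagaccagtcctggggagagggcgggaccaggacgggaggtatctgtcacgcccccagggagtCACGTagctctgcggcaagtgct
Acly: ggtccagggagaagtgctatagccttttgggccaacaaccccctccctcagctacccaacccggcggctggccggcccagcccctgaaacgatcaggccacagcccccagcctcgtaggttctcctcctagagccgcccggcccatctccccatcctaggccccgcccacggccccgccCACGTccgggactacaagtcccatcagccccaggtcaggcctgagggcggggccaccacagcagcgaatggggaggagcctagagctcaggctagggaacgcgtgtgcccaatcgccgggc
Glud1: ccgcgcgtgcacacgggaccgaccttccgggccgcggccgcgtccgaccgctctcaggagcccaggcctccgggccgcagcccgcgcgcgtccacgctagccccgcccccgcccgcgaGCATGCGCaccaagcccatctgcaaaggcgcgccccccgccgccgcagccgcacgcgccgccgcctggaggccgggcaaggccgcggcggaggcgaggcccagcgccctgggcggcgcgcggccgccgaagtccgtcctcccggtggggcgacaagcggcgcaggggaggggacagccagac
In *Aldoc* and *Acly* the capitals CACGT are ACGTG on the opposite strand. *Aldoa*, whose fold change was smaller than that of *Aldoc*, also holds ACGTG in a window.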

How the data were processed

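RNA of sorted cells was amplified, labelled with Cy5 and hybridised to 6 one-color Agilent mouse arrays (59305 non-control spots each, 56605 probes). For every array the authors deposited the scanner file, with raw red-channel intensity values per spot and for the area around it; per the labels it was made with Agilent Feature Extraction 9.1. A series table of log2 values (36693 rows), normalized and deposited by the authors, was used as an alternative only; 40 of the 54 genes were found in it. Its column for Wnt4hi 2 followed the scanner values of that array less closely (r = 0.27 over deviations from the feature means) than the columns of the other arrays (0.84 to 0.87), so values from that table may rest on other data for Wnt4hi 2. The methods give quantile normalization between arrays, and the median of each column of that table was 8.91.

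After the study's methods, spot and background medians were corrected with normexp (offset 50) and quantile normalized with limma (version 3.58.1, R 4.3.3); spots that the scanner software marked as outliers were left out. Replicate spots were averaged. Of 35886 probes with a RefSeq name, 32994 were matched to a symbol of GRCm38.p6. The probe with the highest mean stood for a gene. Wnt4hi and Wnt4low, taken from the sample labels, were set against each other by limma (lmFit, eBayes) over 45616 features, two-sided, with Benjamini-Hochberg adjustment over all of them, and the step was tested on simulated data. All 6 arrays lie on 1 slide and 1 scan. The replicate numbers 3 and 4 occur in both groups. Deviations from the group means correlated at r = -0.03 and 0.16 between samples of the same number. Between samples of different numbers r ran from -0.23 to 0.18. These values cannot tell whether the samples pair, and as the labels do not say so, no pairing was used.

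The members, the lists and the tests were chosen with earlier results of these data known. Of the 54 genes, array values are given for each with an unadjusted p under 0.05 and for the gene of each step with the smallest p where none passed, and also for *Pdk4* and *Gpd2*, chosen after their values were seen; isozyme pairs are described in numbers where the groups do not overlap, with a few others for reading; of the other pathway genes those with an unadjusted p under 0.05 are named, except 1 that is not reported here, with array values for a few. The gene *Nnt* was not matched. Motifs were searched on both strands of RefSeq promoter windows. Precision is limited by having 3 arrays a group, and nothing says how far the pools are independent litters. Alternatives were other background corrections and normalizations, a filter on dim probes, other choices of probe, other variance models, an unpaired t-test, the authors' table, a block on the replicate number, and each array left out in turn. The methods name limma for the arrays and the unpaired t-test for other measurements.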

Additional observations from a re-analysis of the deposited data

How the results depend on the processing

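The 7 genes that passed, *Cs*, the 12 other pathway genes named as passing and the 5 isozyme differences without overlap kept their direction under the other settings that gave them a value, 20 for these genes but 19 for *Hk2* and *Sdha*, and 17 or 18 for the isozyme differences. Of the genes that did not pass, 7 turned with the probe of the smallest p: *Eno1* (-0.72), *Gapdh* (-0.45), *Got1* (1.13), *Me1* (-0.62), *Idh3g* (0.10), and *Pck2* and *Slc25a13*, then read from probes not well above background in Wnt4hi. Under the other settings the direction of the genes that did not pass was not compared; the settings for the 13 other pathway genes were added after seeing the data. Of the 54 genes, 4 to 8 were higher in Wnt4hi at the unadjusted threshold over all settings, where 6 are reported. The count lower, reported as 1, was 2 with cyclic loess, 3 with the mean of the probes, 5 with the probe of the smallest p, 0 with the unpaired t-test and 0 to 3 with 1 array left out, and 1 under the rest. The count with an adjusted p under 0.05 was 1 with the filter on dim probes (*Gpd1*, 0.0416) and 1 with the probe of the smallest p (*Pfkp*, -1.80, 0.0485). Of the other pathway genes, *Slc2a3* had an adjusted p under 0.05 with the mean of the probes and the authors' table (0.0445 and 0.0318). *Slc2a1* (0.0428) and *Ldha* (0.0247) had one in the authors' table. With the filter on dim probes that of *Slc2a3* was 0.0400. *Slc2a3* passed this filter only through Wnt4low, the group where it is high, so that this value gives no support. Over all features, the adjusted calls were 200 in the reported setting, 504 with the filter on dim probes, 371 with the probe of the smallest p, 406 in the authors' table, 0 with the unpaired t-test and 0 to 5 with 1 array left out, so that the adjusted counts rest on all 6 arrays. A fixed replicate block left all features with 0 adjusted calls, and of the 54 genes 8 were higher and 1 lower at the unadjusted threshold. Whether the numbers pair the arrays is not known. As a random block (correlation 0.10) the counts were 252, 6 and 1. *Gpd1* and *Glud1* passed the unadjusted threshold under all 20 settings, *Aldoc* under 19, *Ldhb* under 17, *Acly* under 15, *Mpc1* under 14 and *Me3* under 6. The median of the glycolytic enzymes was -0.04 with the processed signal at the 75th percentile and -0.11 with the probe of the smallest p, that of the NADH shuttles 0.74 with the latter, and that of pyruvate cycling and anaplerosis 0.08 with the mean of the probes.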
